A study of Mus musculus with 10 samples.

Results

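The Jag1 locus of regulatory T cells (Tregs) is described here by its open chromatin, as 10 ATAC-seq peaks on chromosome 2. All rows of the deposited peak table that overlapped a 430 kb window, from Jag1 itself to the region upstream of it, were taken, and these were 10 of the 97385 peaks in the table. The locus was taken up for its peak about 108 kb upstream of the Jag1 start. That peak had the smallest p-value of all peaks between Vps34-deficient and control spleen Tregs. A further reason was that several peaks of the locus, though not all, were known to be lower in Vps34-deficient lung Tregs. The genotype values of the Jag1 locus below are therefore a description and carry no test. The comparisons of lung with spleen were not the contrast behind that choice and are tested, with exceptions. Not read as tests are that upstream peak in Vps34-deficient Tregs, the sums that hold it, and the peak about 120 kb upstream in controls. The comparisons of lung with spleen share libraries with the choice and are not independent of it.

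ATAC-seq reads out where the Tn5 transposase can reach the DNA, so that the count in a peak measures how accessible that stretch was in the cells of a library. Tregs (CD4+Foxp3-YFP+TCRβ+) were sorted from the spleen or lung of C57BL/6 mice that were 10 days old. Control mice were Foxp3Cre Pik3c3+/+ or Foxp3Cre Pik3c3+/fl, and Vps34-deficient mice were Foxp3Cre Pik3c3fl/fl, so that the Cre, which is driven from Foxp3 and marked by YFP, was carried by every group and removed Pik3c3, the gene of the lipid kinase Vps34, in cells that express Foxp3. There were 2 control and 4 Vps34-deficient spleen libraries, and 2 control and 2 Vps34-deficient lung libraries. The study gives its sample numbers as mice, but the labels do not tie each library to a mouse, so the p-values are read as measuring only the spread between these libraries, which may be technical.

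Jag1 encodes Jagged 1, a membrane-bound ligand of the Notch receptors. A ligand on one cell binds a Notch receptor on its neighbour, the receptor is cleaved by ADAM proteases and then by γ-secretase, and the released intracellular part joins RBPJ and Mastermind proteins on DNA to switch on genes such as Hes1. In T cells, Notch signals are best known for committing progenitors to the T lineage in the thymus, and mature T cells and Tregs can carry both ligands and receptors. Accessibility of the Jag1 gene is not a measure of its mRNA or of Jagged 1 protein, neither of which was measured in these libraries.

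The library totals over all peaks ran from 9405823 to 22439699 counts, with 9405823 to 14172956 in lung and 13932355 to 22439699 in spleen. The promoter peaks of Foxp3, Il2ra, Ikzf2, Ctla4, Cd4 and Cd3e held counts in each of the 10 libraries. No promoter peak was present for the B cell gene Cd79a, the myeloid genes Csf1r and Lyz2, the endothelial genes Cdh5 and Tek, the lung epithelial gene Sftpc or the NK cell gene Klrb1c. Other genes of the same marker lists did hold promoter counts in each library. Pax5 (0.357 to 1.69), Itgam (0.635 to 1.81), Spi1 (0.489 to 1.70) and Nkx2-1 (0.361 to 2.12) were low, and others were higher, with Ebf1 at 14.1 to 19.7, Pecam1 at 24.0 to 29.7, Epcam at 16.8 to 24.8, Col1a1 at 9.74 to 13.1, Eomes at 14.9 to 21.7 and Cd8b1 at 6.35 to 13.1 CPM (counts scaled to a library total of 1000000), beside 4.06 to 8.32 CPM for Foxp3. The promoter peak of Pik3c3 held 52.5 to 67.3 CPM over the libraries and does not report on the deleted part of the gene, and so gave no check of the genotype labels.

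In the GRCm38 build, Jag1 (ENSMUSG00000027276.7) lies on the minus strand at chr2:137081456-137116644, and its start is therefore at the higher coordinate. Slx4ip ends shortly beyond the 3′ end of Jag1, at position 137071950. On the upstream side the next protein-coding gene, Btbd3, starts at position 138256565, and only the non-coding RNA genes Gm28214 and Gm14055 lie between Jag1 and the end of the window. Of the 10 peaks, 4 lay at the gene. They were the promoter peak at chr2:137116641-137117716, which is 1076 bp wide and covers the start of the first exon, a peak in coding sequence centred 1.15 kb inside the gene (chr2:137115396-137115595), and intronic peaks centred 1.66 kb (chr2:137114871-137115095) and 2.29 kb (chr2:137114168-137114535) inside it. After a gap of 106.7 kb without a peak, the other 6 lay upstream in intergenic DNA, and are named here by the distance of their centre from the Jag1 start. These were the +108 kb peak (chr2:137224453-137225071), the +109 kb peak (chr2:137225208-137225576), the +120 kb peak (chr2:137236920-137237272), the +138 kb peak (chr2:137255001-137255200), the +295 kb peak (chr2:137411685-137411894) and the +374 kb peak (chr2:137490594-137490949). No peak was linked to Jag1 by a contact or perturbation measurement here, so the upstream peaks are grouped with the gene by position alone.

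The central 300 bases of the promoter peak and of the 4 upstream peaks that differed most between genotypes are printed because the results below turn on them. They are read 5′ to 3′ on the minus strand, in the direction of Jag1 transcription, from the RefSeq copy of GRCm38, with matches to the searched motifs in capitals.
Jag1 promoter peak (chr2:137117028-137117327): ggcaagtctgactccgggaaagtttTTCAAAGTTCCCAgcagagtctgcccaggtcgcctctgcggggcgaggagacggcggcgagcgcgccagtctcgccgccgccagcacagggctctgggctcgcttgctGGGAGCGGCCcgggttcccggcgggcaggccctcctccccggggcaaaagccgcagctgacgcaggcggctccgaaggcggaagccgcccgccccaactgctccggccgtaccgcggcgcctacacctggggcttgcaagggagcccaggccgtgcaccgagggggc
+108 kb peak (chr2:137224612-137224911): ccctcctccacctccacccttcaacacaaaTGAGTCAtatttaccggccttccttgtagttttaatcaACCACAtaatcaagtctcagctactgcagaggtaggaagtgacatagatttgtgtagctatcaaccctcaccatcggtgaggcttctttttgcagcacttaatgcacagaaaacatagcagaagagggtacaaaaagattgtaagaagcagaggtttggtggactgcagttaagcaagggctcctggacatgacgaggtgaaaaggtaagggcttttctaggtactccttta
+109 kb peak (chr2:137225242-137225541): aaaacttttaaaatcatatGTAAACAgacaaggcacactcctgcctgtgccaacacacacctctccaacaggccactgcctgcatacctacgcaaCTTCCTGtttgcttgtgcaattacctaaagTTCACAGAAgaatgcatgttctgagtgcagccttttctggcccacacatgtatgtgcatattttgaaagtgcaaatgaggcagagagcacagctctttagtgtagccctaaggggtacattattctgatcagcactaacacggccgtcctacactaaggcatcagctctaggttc
+120 kb peak (chr2:137236946-137237245): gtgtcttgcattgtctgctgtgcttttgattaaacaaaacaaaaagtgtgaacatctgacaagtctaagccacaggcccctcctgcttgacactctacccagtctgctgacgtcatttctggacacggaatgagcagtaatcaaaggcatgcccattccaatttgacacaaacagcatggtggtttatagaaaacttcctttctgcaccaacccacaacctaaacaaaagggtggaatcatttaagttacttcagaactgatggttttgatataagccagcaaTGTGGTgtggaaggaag
+374 kb peak (chr2:137490621-137490920): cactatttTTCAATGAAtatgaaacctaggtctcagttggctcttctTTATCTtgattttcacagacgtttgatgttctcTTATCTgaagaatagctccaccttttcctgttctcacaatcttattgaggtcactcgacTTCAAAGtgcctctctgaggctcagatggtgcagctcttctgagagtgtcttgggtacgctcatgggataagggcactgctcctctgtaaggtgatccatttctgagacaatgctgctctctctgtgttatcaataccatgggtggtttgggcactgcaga

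Letters of 12 motifs were searched on both strands in the same central window of every peak. The +108 kb window held an AP-1 match (TGANTCA), which 13% of 97243 windows held, and a RUNX match (TGTGGT), which 26.5% held. The AP-1 letters lay at bases 31 to 37 of the printed window and the RUNX letters, on the other strand, at bases 69 to 74. In the +109 kb window there were a forkhead match (TGTTTAC, in 4.34% of windows), an ETS match (CAGGAAG or ACCGGAAG, 21.8%) and a STAT match (TTCNNNGAA, 9.29%). The +120 kb window had a RUNX match alone among the motifs shown in capitals. The +374 kb window had a pair of GATA matches (AGATAA, 15.1%), a STAT match and a TCF match (CTTTGAA, 7.7%). The promoter window held a TCF match that runs directly into a match to the RBPJ letters (TGGGAA, 21.1%), and an NF-kB match (GGGA followed, after any 4 bases, by CC, 17.2%). E-box letters (CANNTG) were found in 79.2% of all windows and are not marked. Searches for a bZIP-IRF composite (the AP-1 letters directly after GAAA, or 4 bases after TTTC, in 0.603% of windows and overlapping the AP-1 match by design) and for a PPAR-type repeat (AGGTCA and AGGTCA, 1 base apart, 0.0473%) found nothing in the 10 windows of the locus. The windows differed in base composition as well, with 72.7% G and C at the promoter against 38.3 to 45.7% over the upstream peaks. Such matches are letters in a window and not measured binding.

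The +108 kb peak was the most changed between genotypes in spleen. Control spleen Tregs had 15.4 and 19.7 CPM there, and the Vps34-deficient spleen libraries had 2.09, 1.71, 2.62 and 2.58 CPM. Control lung Tregs had 29.1 and 35.8 CPM, against 3.90 and 6.56 CPM in the Vps34-deficient lung libraries. The 4 groups did not overlap, and their order was lung control, spleen control, lung Vps34-deficient and spleen Vps34-deficient. In the fit the peak was 7.73-fold lower in Vps34-deficient spleen Tregs (log2 fold change -2.95, SE 0.21) and 6.42-fold lower in the lung (-2.68, SE 0.25). Because the cells were measured in bulk, fewer cells with an open site and a less open site in each cell cannot be told apart, here or at any other peak.

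The +109 kb peak, which starts less than 1 kb from the +108 kb peak, had the same arrangement at a lower level. It held 3.65 and 4.96 CPM in control spleen and 0.835, 0.734, 0.361 and 1.44 CPM in Vps34-deficient spleen. The lung libraries had 6.80 and 9.88 CPM in controls and 1.14 and 1.48 CPM without Vps34. Control and Vps34-deficient libraries did not overlap in either tissue, but the Vps34-deficient libraries of spleen and lung overlapped each other. The fitted genotype difference on the log2 scale was -2.40 (SE 0.36) for spleen Tregs, with -2.71 (SE 0.44) for lung Tregs. The count at +109 kb was 23.7 and 25.2% of the count at +108 kb in the control spleen libraries, and 23.4 and 27.6% in the control lung libraries. In Vps34-deficient spleen, at the lower counts there, it was 40.0, 42.9, 13.8 and 55.6%, and in Vps34-deficient lung 29.2 and 22.6%. These rest on +109 kb counts of only 12, 12, 8 and 20 in Vps34-deficient spleen and 14 and 14 in Vps34-deficient lung.

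The +120 kb peak was open mainly in control lung Tregs. Its counts in the control lung libraries were 40 and 104 (4.25 and 7.34 CPM), while the Vps34-deficient lung libraries had 4 and 7 (0.325 and 0.741 CPM). Control spleen libraries had 8 and 10 counts (0.357 and 0.689 CPM), and Vps34-deficient spleen libraries had 2, 2, 6 and 0. Both mates of a read pair were counted, so that a count of 0 allows up to 3 read pairs rather than 3 counts. Thus the control spleen and the Vps34-deficient lung libraries overlapped, and both stood well below the control lung libraries. The log2 fold change between genotypes was -3.51 (SE 0.65) in lung and -1.73 (SE 0.70) in spleen, where the counts were too low to set it closely.

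The +374 kb peak, the farthest upstream, was also low. Counts were 30 and 14 in control spleen (1.34 and 0.964 CPM) and 4, 4, 2 and 2 in Vps34-deficient spleen (0.278, 0.245, 0.0903 and 0.144 CPM). Control lung libraries had 32 and 50 counts (3.40 and 3.53 CPM) and Vps34-deficient lung libraries 14 and 6 (1.14 and 0.635 CPM). The genotypes did not overlap within a tissue. Between them the fit gave a log2 fold change of -2.61 (SE 0.56) for spleen Tregs, with -1.95 (SE 0.57) for lung Tregs.

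The promoter peak was the most open of the 10 and changed less. It held 48.8 and 43.7 CPM in control spleen and 27.5, 29.2, 28.6 and 27.3 CPM in Vps34-deficient spleen. Control lung Tregs had 59.8 and 59.3 CPM and Vps34-deficient lung Tregs 32.0 and 31.8 CPM. No library of one group reached the range of another, and the groups stood in the same order as at +108 kb. The promoter was 1.64-fold lower in Vps34-deficient spleen Tregs (log2 fold change -0.72, SE 0.10) and 1.9-fold lower in the lung (-0.92, SE 0.12).

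**Figure D1:**
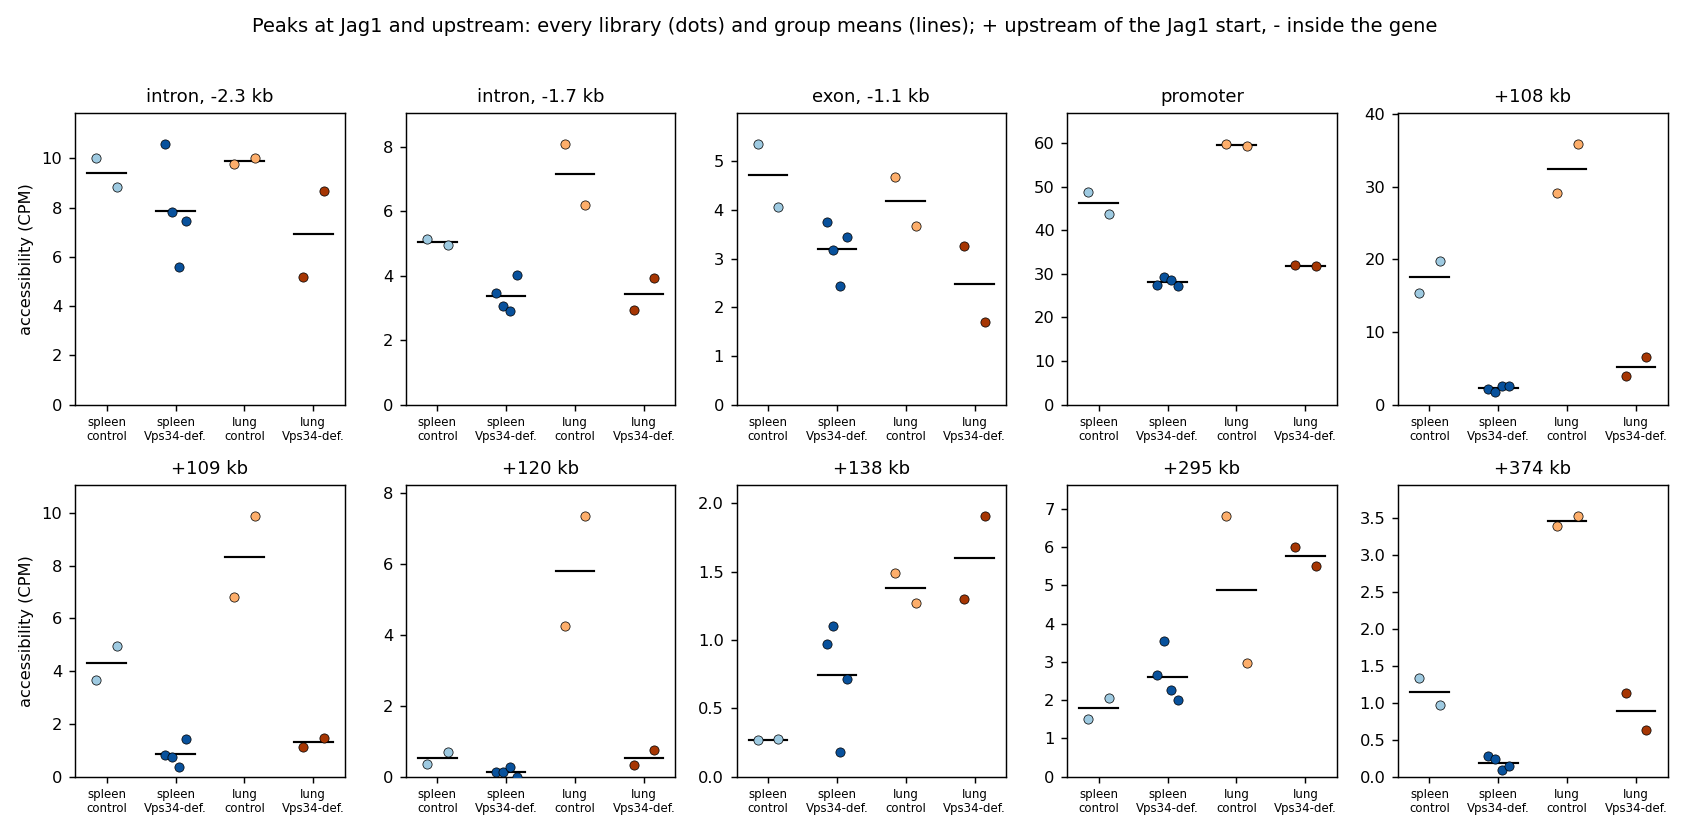
Accessibility of each of the 10 peaks of the Jag1 locus, in CPM on linear axes that start at 0 and differ between panels; dots are libraries, lines are group means, and distances are from the Jag1 start (plus sign upstream, minus sign inside the gene). The Vps34-deficient libraries lie below the controls of the same tissue at the promoter and at +108, +109, +120 and +374 kb, and not at +138 and +295 kb.

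The other peaks did not all follow. The +138 kb peak had 0.267 and 0.276 CPM in control spleen, 0.974, 1.10, 0.181 and 0.718 CPM in Vps34-deficient spleen, 1.49 and 1.27 CPM in control lung and 1.30 and 1.91 CPM in Vps34-deficient lung. At +295 kb the values were 1.52 and 2.07 CPM in control spleen, 2.64, 3.55, 2.26 and 2.01 CPM in Vps34-deficient spleen, 6.80 and 2.96 CPM in control lung, and 6.01 and 5.50 CPM in Vps34-deficient lung. The genotypes overlapped at both peaks in both tissues. Inside the gene, the group means of the peaks at 1.15, 1.66 and 2.29 kb were between 2.47 and 9.90 CPM, and each mean was lower in Vps34-deficient Tregs than in controls of the same tissue. The largest of these differences was at the 1.66 kb peak, with 7.14 ± 1.32 CPM in control lung and 3.42 ± 0.70 CPM in Vps34-deficient lung (SD, n = 2 each).

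By the calling rule (edgeR adjusted p below 0.05 and a log2 fold change beyond 0.5), 4 of the 10 peaks were called lower in Vps34-deficient spleen Tregs, where 1.02% of all 97109 tested peaks were called lower. In the lung 6 of the 10 were called lower, beside 3.74% of all tested peaks, and 3 without lung control replicate 2 or lung Vps34-deficient replicate 1. None of the 10 was called higher, as 0.441% and 1.22% of all tested peaks were in spleen and lung. The libraries of the genotypes were separate, with Vps34-deficient Tregs lower, at 7 of the 10 peaks in spleen and 8 in lung, as they were at 11.1% and 22.0% of all tested peaks. These counts describe a locus that was chosen on the same libraries, and nothing is read from them.

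**Figure D2:**
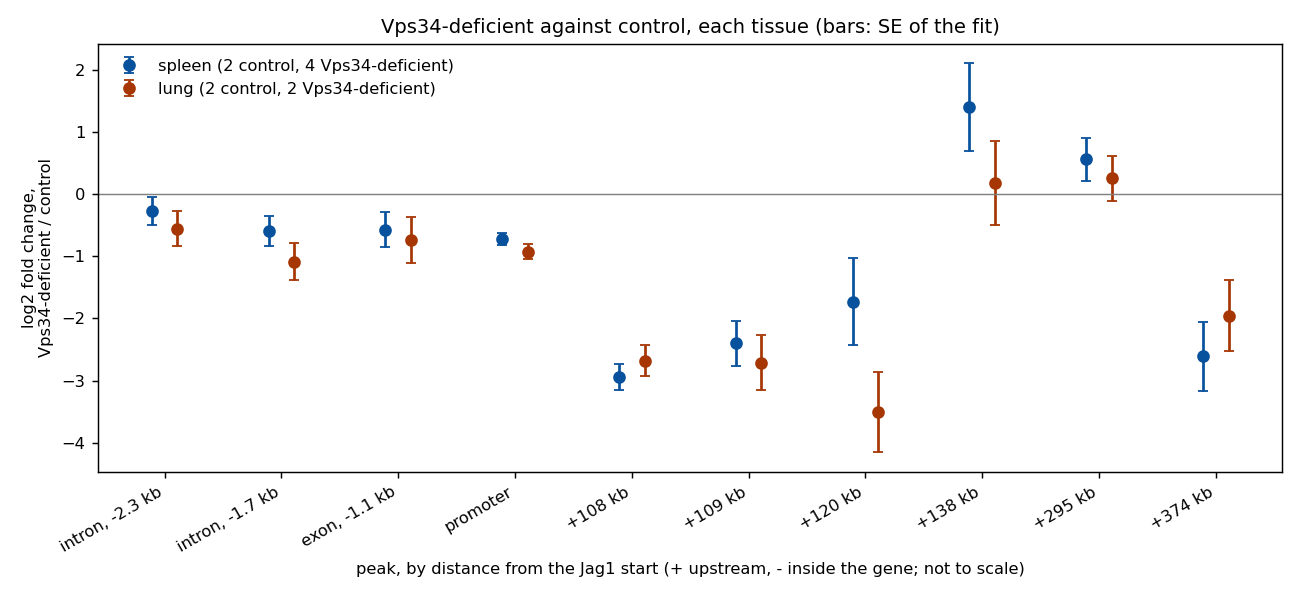
Log2 fold change of Vps34-deficient against control Tregs at each Jag1 locus peak, in spleen (blue) and lung (brown); points are fitted values from edgeR and bars are their SE. The promoter points lie at -0.72 and -0.92, the points at +108 and +109 kb between -2.95 and -2.40, and the points at +138 and +295 kb above 0.

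The peaks just inside the edges of the window were those at 2.29 kb inside the gene and at +374 kb. The nearest peak outside it on the Slx4ip side (chr2:136997180-136997441) held 2.23 and 1.65 CPM in control spleen and 1.67, 2.32, 0.632 and 0.861 CPM in Vps34-deficient spleen. The nearest on the upstream side (chr2:137570923-137571133) held 1.60 and 1.65 CPM in control spleen and 1.95, 2.69, 1.53 and 3.73 CPM in Vps34-deficient spleen. The genotypes overlapped in spleen at both of these flanking peaks, which at +374 kb they did not. In the lung, the upstream flanking peak was separate and higher without Vps34, at 5.85 and 8.04 CPM against 4.04 and 3.95 CPM for the controls, although it was not called between genotypes. That flanking peak, 211 bp wide, was also called higher in lung than in spleen, by 1.37 in control (edgeR adjusted p = 0.0176) and 1.55 in Vps34-deficient Tregs (edgeR adjusted p = 0.001) on the log2 scale.

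The ratio of the +108 kb count to the promoter count within a library does not depend on library size. The count at +108 kb was 31.6 and 45.0% of the promoter count in control spleen and 5.87 to 9.47% in the 4 Vps34-deficient spleen libraries. In the lung it was 48.8 and 60.4% in controls and 12.2 and 20.7% in Vps34-deficient libraries. Per kb of peak, the +108 kb peak held 47.1 and 57.9 CPM in the control lung libraries, where the promoter held 55.5 and 55.1 CPM, whereas in Vps34-deficient spleen it stayed between 2.77 and 4.23 CPM per kb and the promoter between 25.3 and 27.1 CPM per kb. The 6 upstream peaks together made up 24.5 and 31.8% of the counts of the locus in control spleen, 12.7 to 14.7% in Vps34-deficient spleen, 38.7 and 43.4% in control lung, and 24.1 and 26.8% in Vps34-deficient lung.

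**Figure D3:**
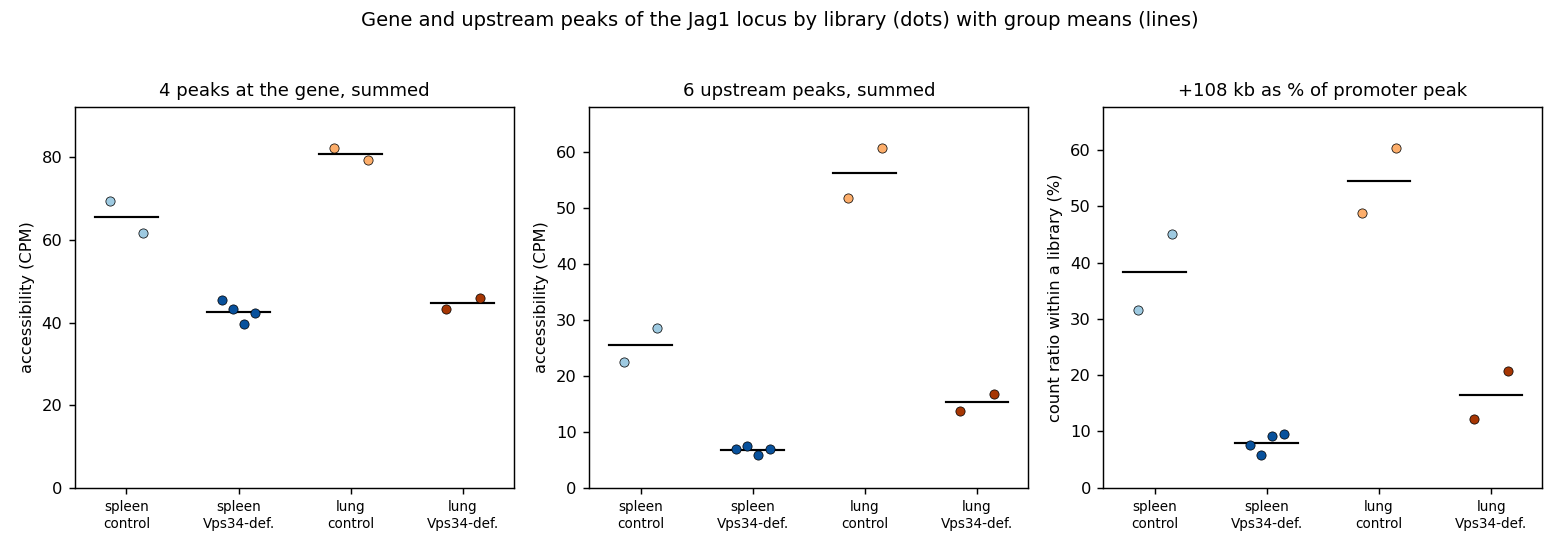
Summed accessibility of the 4 peaks at Jag1 and of the 6 upstream peaks (CPM), and the +108 kb count as a percentage of the promoter count, for each library (dots) with group means (lines). The upstream sum spans 5.78 to 60.8 CPM over the libraries, and the sum at the gene 39.5 to 82.3 CPM.

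The comparison of lung with spleen asks whether the locus differs between Tregs of a non-lymphoid and a lymphoid organ. In control Tregs, 5 of the 10 peaks rose in the lung and none fell, where 11.8% of all tested peaks were called higher and 3.53% lower. The +120 kb peak differed most, with a log2 fold change of 3.59 (SE 0.61, edgeR quasi-likelihood adjusted p = 0.000336), a 12-fold difference, and this call held when any single library was left out. However, the peak passed the filter on low counts through lung libraries alone, with 8 and 10 counts in control spleen. Lower lung values without Vps34 were also part of the choice of the locus. This +120 kb difference is therefore a description, and its call is not read as a test. The +108 kb peak rose by 0.97 (SE 0.22, edgeR adjusted p = 0.00384), but its call was lost without spleen control replicate 1 (log2 fold change 0.70) or without lung control replicate 2 (0.72). The +374 kb peak was 1.65 higher on the log2 scale (SE 0.53, edgeR adjusted p = 0.0357), and that call was lost without any one of the 4 control libraries. The +109 kb peak did not pass the test, at a log2 fold change of 1.05 (SE 0.37, edgeR adjusted p = 0.0566). The promoter differed by 0.44 (SE 0.11, edgeR adjusted p = 0.009), which is under the size required for a call. Its libraries did not overlap, but the share of all tested peaks separate in this comparison is not given here, and nothing is read from it. Over the 10 peaks the median log2 fold change was 1.01, and over all tested peaks it was 0.04.

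The calls at +295 kb (log2 fold change 1.5, SE 0.39, edgeR adjusted p = 0.0104) and +138 kb (2.38, SE 0.77, edgeR adjusted p = 0.0362) stand apart, because these peaks are narrow, at 210 and 200 bp, while the median width of all peaks was 327 bp. Among all tested peaks up to 218 bp wide, 34.8% were called higher in control lung than in control spleen, against 4.99% of the wider ones, so that a call in a narrow peak was common in this comparison. The part that peak width played in these calls was not tested. The +295 kb call was lost without spleen control replicate 1 (log2 fold change 1.18) or lung control replicate 1 (0.75), and the +138 kb call was lost without any one of the 4 control libraries.

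In Vps34-deficient Tregs, 3 of the 10 peaks rose in the lung and none fell, beside 12.5% of all tested peaks called higher and 4.72% lower. The spleen libraries in this comparison are among those that the choice of the locus rested on. The +108 kb peak was 1.24 higher on the log2 scale (SE 0.25), from a mean of 2.25 to 5.23 CPM. Its low spleen values led to the choice of the locus, so this difference is a description and its call is not read as a test. The call was lost without lung Vps34-deficient replicate 2 (log2 fold change 0.90). The +374 kb peak was 2.31 higher on the log2 scale (SE 0.62, edgeR adjusted p = 0.0108) on 2 to 14 counts a library, and lost its call without lung Vps34-deficient replicate 1. The narrow +295 kb peak differed by 1.19 (SE 0.32, edgeR adjusted p = 0.0102), where 42.3% of all narrow peaks and 3.58% of wider ones were called higher, and lost its call without lung Vps34-deficient replicate 1. The promoter difference of 0.23 (SE 0.10) did not pass the test (edgeR adjusted p = 0.119), and neither did the +120 kb difference of 1.81 (SE 0.77, edgeR adjusted p = 0.106).

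**Figure D4:**
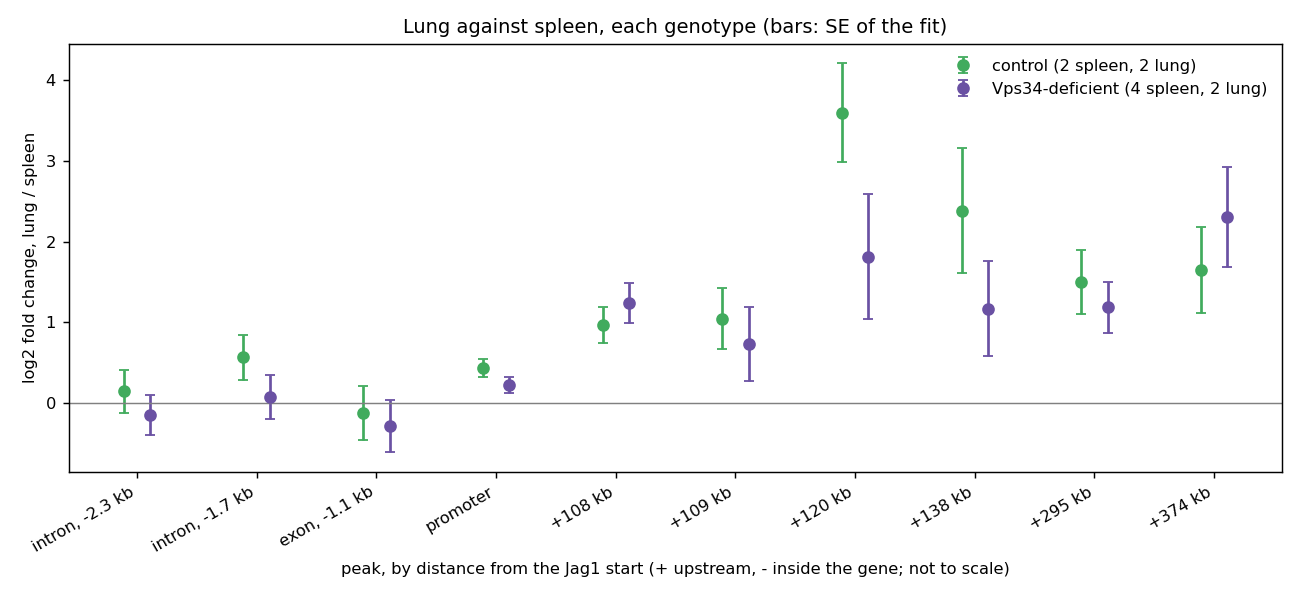
Log2 fold change of lung against spleen Tregs at each Jag1 locus peak, in control (green) and Vps34-deficient (purple) Tregs; points are fitted values from edgeR and bars are their SE. The points within the gene and at the promoter lie between -0.28 and 0.57, and the +120 kb peak is at 3.59 in controls and 1.81 in Vps34-deficient Tregs.

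Summed over the 10 peaks, the locus had 91.9 and 90.2 CPM in control spleen, 134 and 140 CPM in control lung, 45.3 to 52.3 CPM in Vps34-deficient spleen, and 57.2 and 62.9 CPM in Vps34-deficient lung. Every lung library was above every spleen library of its genotype. With tissue labels exchanged within each genotype, the lung libraries were higher by 0.44 on the log2 scale (two-sided exact permutation test, p = 0.0111, the smallest that the 90 arrangements allow). With the mean of the log2 CPM of the 10 peaks in place of their sum, which gives the low upstream peaks equal weight, the difference was 0.86 at the same p. Among the libraries exchanged are the Vps34-deficient spleen libraries, whose low +108 kb values led to the choice of the locus, so the p-values of these sums are not independent of it. The 6 upstream peaks differed by 1.16 on the log2 scale (exact permutation p = 0.0111), with 1.14 in controls and 1.18 in Vps34-deficient Tregs. This sum holds the +108 kb peak and the narrow +138 and +295 kb peaks. In Vps34-deficient Tregs the spleen and lung means were 2.25 and 5.23 CPM at +108 kb and 2.61 and 5.76 CPM at +295 kb. They were 0.743 and 1.60 CPM at +138 kb, and 6.77 and 15.3 CPM for the upstream sum. The p-values of this sum and of all 10 peaks are therefore not read as tests. The 4 peaks at the gene differed by 0.19 (exact permutation p = 0.0556), with 0.31 in controls and 0.07 in Vps34-deficient Tregs, and the sum of all 10 by 0.59 and 0.28. All 3 p-values are given as computed, and after Benjamini-Hochberg adjustment over the 3 sums they were 0.0167, 0.0167 and 0.0556.

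Markers of other cells gave these values beside the tissue result. The summed promoter CPM of the myeloid list was 1.65 to 1.72 in control spleen and 2.40 to 3.40 in control lung, which is separate and higher, and 1.67 to 2.62 in Vps34-deficient spleen and 1.95 to 2.12 in Vps34-deficient lung, with 2 of its 4 genes without a peak. The endothelial list gave 29.9 to 33.5 in control spleen and 27.0 to 36.2 in control lung, and in Vps34-deficient Tregs it was lower in lung (27.3 to 30.1) than in spleen (31.9 to 35.8). The lung epithelium and stroma list gave 34.6 to 35.7 in control spleen and 30.5 to 35.3 in control lung, and likewise was lower in Vps34-deficient lung (30.5 to 31.0) than in Vps34-deficient spleen (32.3 to 35.9), with Cdh5, Tek and Sftpc without a peak. For B cell genes, where Ebf1 made most of the sum, it was 14.5 to 20.1 in control spleen, 17.9 to 20.8 in control lung, 15.4 to 20.4 in Vps34-deficient spleen and 17.5 to 18.6 in Vps34-deficient lung. Of the low markers, Itgam and Spi1 were separate and higher in control lung, and overlapped between tissues in Vps34-deficient Tregs. Pax5, a B cell factor, had 0.357 and 0.413 CPM in control spleen and 1.28 and 1.13 CPM in control lung, and in Vps34-deficient Tregs 0.489 to 0.974 CPM in spleen and 1.62 and 1.69 CPM in lung. Nkx2-1, a lung epithelial factor, had 0.802 and 0.895 CPM in control spleen, 1.91 and 1.69 CPM in control lung, 0.361 to 1.11 CPM in Vps34-deficient spleen and 1.30 and 2.12 CPM in Vps34-deficient lung. Pax5 and Nkx2-1 were thus separate and higher in the lung in each genotype, but other genes of their lists did not all follow. Ebf1 overlapped between tissues in each genotype, and Col1a1 was separate and higher in control lung only. Epcam was lower in lung in each genotype, with 24.8 and 24.0 CPM in control spleen and 16.8 and 22.6 CPM in control lung. For CD8 and NK cell genes the sum was 28.1 to 32.5 in control spleen and 23.6 to 27.6 in control lung, which did not overlap, and 26.6 to 37.9 in Vps34-deficient spleen and 33.0 to 39.6 in Vps34-deficient lung, so that the lung genotypes did not overlap, and Cd8a was at 9.53 CPM in lung Vps34-deficient replicate 2. The part of this shift in the lung genotype values above was not tested. The Treg and CD4 T cell list gave 168 to 188 in control spleen and 146 to 176 in control lung, which overlapped, and 167 to 193 in Vps34-deficient spleen and 135 to 157 in Vps34-deficient lung, which did not. The part of other cells in the lung values was not tested.

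Whether the genotype difference was of another size in lung than in spleen was examined by an interaction term. It is built from the genotype values behind the choice of the locus, so its values at the 10 peaks are a description. None of the 10 peaks was called in this test, at edgeR adjusted p, and none had an unadjusted p below 0.05, while 0.0% of all tested peaks were called (7060 had an unadjusted p below 0.05, and DESeq2 called 35). At +108 kb the lung change minus the spleen change was 0.27 (SE 0.33) on the log2 scale, and at the promoter it was -0.21 (SE 0.15). The +120 kb peak had the largest value, -1.78, with an SE of 1.03 (edgeR adjusted p = 0.757). The SEs leave room for a difference between tissues at the low peaks in particular.

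Peaks elsewhere in the genome were compared with the +108 kb peak by their pattern over the 10 libraries, as the root mean square difference of centred log2 CPM among 87324 peaks with a mean of at least 1 CPM, where 0 is the same pattern and the median peak was at 1.63. The closest 10, at 0.30 to 0.41, had their nearest protein-coding gene start at Ffar2, Tg, Trp53inp1, Siglec15, Kdm4a, Itpr1, Tgfa, Tatdn2, Plekha7 and Klrg1. The closest of all, 12.9 kb from the start of Ffar2, a receptor for short-chain fatty acids, had mean levels of 3.00 and 0.439 CPM in control and Vps34-deficient spleen and 6.33 and 0.879 CPM in control and Vps34-deficient lung. The peak at the start of Klrg1, a receptor found on activated Tregs, had 1.93, 0.392, 5.55 and 0.854 CPM in the same order. Within the Jag1 locus, the +109 kb peak was at 0.50 from the +108 kb peak, and 35 peaks outside the locus were closer to it. The +374 kb peak was at 0.69 and the +120 kb peak at 0.88, whereas the promoter was at 1.14 with 2183 peaks closer, and the +138 and +295 kb peaks, at 1.78 and 1.65, were no more alike than the median peak.

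The other genes of the Notch pathway were read from 352 tested peaks in or within 10 kb of 40 genes, Jag1 left out. In the spleen, 2 of these peaks were lower in Vps34-deficient Tregs and none was higher by edgeR's adjusted p (44 had an unadjusted p below 0.05). The 2 peaks were listed under Maml2 and Maml3, which encode Mastermind coactivators, and are 0.57% of the list, beside 1.02% of all tested peaks called lower. In the lung 14 were lower and 6 higher, or 3.98% and 1.7%, against 3.74% and 1.22% of all tested peaks. Their median log2 fold change was 0.06 in spleen and 0.04 in lung, beside 0.05 and 0.02 over all tested peaks.

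Among the ligands, 1 of 14 peaks (7.14%) was called, lower in Vps34-deficient lung, where 3.74% of all tested peaks were called lower. This peak, chr12:112897496-112898237, lies 31.9 kb from the start of Jag2, which encodes the other Jagged ligand, and fell from 5.74 and 9.88 CPM in control lung to 3.90 and 2.54 CPM in Vps34-deficient lung (log2 fold change -1.30, SE 0.30, edgeR adjusted p = 0.0114). No peak of Dll1, Dll3 or Dll4, which encode the Delta-like ligands, was called in either tissue. Of 44 receptor peaks, 2 fell and 2 rose in Vps34-deficient lung (4.55% each), beside 3.74% and 1.22% of all tested peaks. These were all peaks of the receptor Notch2, and no peak of Notch1, Notch3 or Notch4 was called between genotypes. The Notch2 peak with the smallest p, chr3:98027201-98027658, had 24.7 and 23.3 CPM in control lung and 8.28 and 10.8 CPM in Vps34-deficient lung (log2 fold change -1.36, SE 0.23, edgeR adjusted p = 0.000945). Another Notch2 peak, chr3:98046372-98046726, fell from 6.59 and 7.76 CPM to 3.25 and 2.54 CPM (log2 fold change -1.33, edgeR adjusted p = 0.00883), and the one at chr3:98085775-98086205 rose from 6.38 and 8.61 CPM to 16.9 and 14.2 CPM (1.02, edgeR adjusted p = 0.009).

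Of the processing genes, a peak by Pofut1, which adds O-fucose to Notch receptors, rose in Vps34-deficient lung from 9.36 and 7.90 CPM to 19.5 and 16.3 CPM (log2 fold change 1.04, SE 0.17, edgeR adjusted p = 0.00068), although the closest gene start to it is that of Kif3b. In the same comparison, 2 of 9 peaks of the γ-secretase gene Psen2 fell. Of the 63 peaks of processing genes, 3.17% were called lower and 1.59% higher in the lung, beside 3.74% and 1.22% of all tested peaks. The nuclear complex, the largest class, had 9 peaks lower (5.62%) and 3 higher (1.88%) of 160 in the lung, beside 3.74% and 1.22% of all tested peaks. A peak at chr9:13701609-13702200, 39.4 kb from the start of the coactivator Maml2, fell in both tissues. It held 28.7 and 31.8 CPM in control spleen, 13.8, 14.1, 12.7 and 16.8 CPM in Vps34-deficient spleen, 28.3 and 34.3 CPM in control lung and 8.12 and 10.2 CPM in Vps34-deficient lung. The log2 fold change of that Maml2 peak was -1.08 (SE 0.14, edgeR adjusted p = 0.000127) in spleen and -1.81 (SE 0.19, edgeR adjusted p = 3.73e-06) in lung. Near Rbpj, the DNA-binding partner of Notch, 3 of 21 peaks fell in the lung, where 3.74% of all tested peaks were called lower. Among them was chr5:53490565-53491356, which fell from 45.1 and 51 CPM to 29.2 and 29.4 CPM (log2 fold change -0.74, SE 0.12, edgeR adjusted p = 0.000647). A much lower Rbpj peak, chr5:53471174-53471499, fell from 1.70 and 2.40 CPM to 0.162 and 0.212 CPM (log2 fold change -3.46, SE 0.73, edgeR adjusted p = 0.00587). The peak listed under Kdm5a, which encodes a histone demethylase, fell from 8.72 and 14.3 CPM to 4.71 and 2.96 CPM (log2 fold change -1.60, SE 0.29, edgeR adjusted p = 0.0016), and its nearest gene start is that of Il17ra. None of the 33 peaks of the target genes and none of the 38 of the inhibitors was called between genotypes by edgeR's adjusted p. In the lung, 9 and 8 of them had an unadjusted p below 0.05. Of all tested peaks, 1.02% were called lower and 0.441% higher in spleen, and 3.74% and 1.22% in lung. At such shares few calls are due in lists of this size, and nothing is read from their absence.

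**Figure D5:**
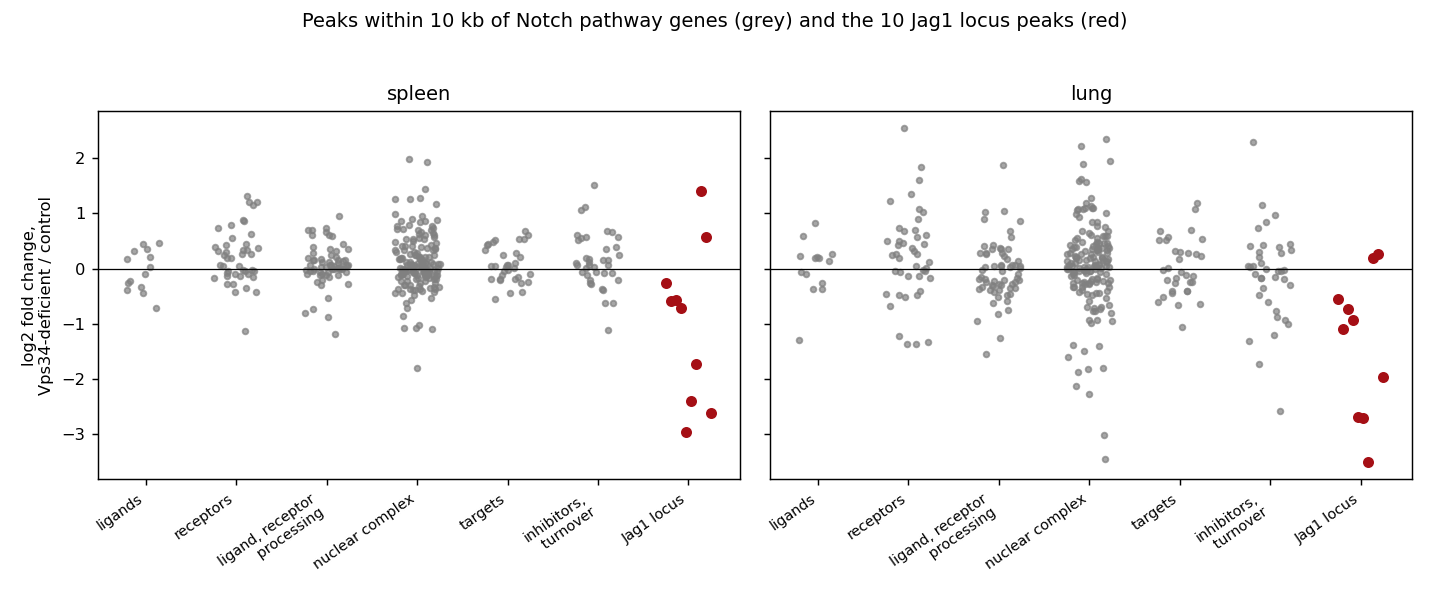
Log2 fold change of Vps34-deficient against control Tregs for the peaks of 40 Notch pathway genes (grey, by role, spread sideways for legibility) and for the 10 Jag1 locus peaks (red), in spleen and lung. The medians of the grey points are 0.06 in spleen and 0.04 in lung; the red points are drawn for reference, since that locus was chosen on these comparisons.

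Between tissues, 29 of the 352 Notch list peaks were higher and 12 lower in control lung than in control spleen, which is 8.24% and 3.41%, against 11.8% and 3.53% of all tested peaks. In Vps34-deficient Tregs 29 were higher and 15 lower, or 8.24% and 4.26%, beside 12.5% and 4.72% of all tested peaks. Narrow peaks of up to 218 bp made up 21 and 25 of the 29 higher peaks, and 80 of the 355 listed peaks. Of the 6 listed peaks with the smallest p between tissues, 5 were higher in Vps34-deficient lung than in Vps34-deficient spleen. They were listed under Kdm5a, Notch4, Maml3, Numb and Rbpj and were between 210 and 213 bp wide, and the part of peak width in them was not tested. The closest gene start to the Notch4 peak, 97 bp away, is that of Gpsm3. The Pofut1 peak was wider (654 bp) and was lower in control lung than in control spleen, with 22.1 and 8.63 CPM on average (log2 fold change -1.29, SE 0.17, edgeR adjusted p = 5.41e-05). No listed peak was called in the interaction test by edgeR's adjusted p, and 27 had an unadjusted p below 0.05.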

How the data were processed

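ATAC-seq was performed on 10 Treg libraries. Per the study's methods, the authors trimmed and aligned reads, removed duplicates, shifted reads for Tn5, kept nucleosome-free fragments and called peaks per sample. The submitters' processing notes name cutadapt 1.9, Picard 1.65, MACS2 2.1.0.20150603 and GRCm38, with no role or order. Peaks found in enough of a genotype's replicates were merged, and the deposited counts are raw numbers of read ends per merged peak, not normalized. Both mates were counted, as 91.5 to 96.5% of a library's counts were even numbers. The methods name another trimmer (trimmomatic) and another Picard version than the notes, which was not settled. They name the mm9 build, but the notes name GRCm38 and no peak passed a GRCm38 chromosome end. They also give 4 control and 2 Vps34-deficient spleen samples, and the labels and columns, which were followed here, give 2 and 4.

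From these counts, CPM were computed on column totals. All peaks passing edgeR's filterByExpr (97109 of 97385) were fitted with edgeR 4.0.16 in R 4.3.3 (TMM factors, quasi-likelihood test, 1 mean per group, all 10 libraries), with Benjamini-Hochberg adjustment over all of them. Peaks were called at an adjusted p below 0.05 and a log2 fold change above 0.5 in size, the thresholds of the study. The common coefficient of variation was 17.8%. The fit was checked on simulated counts with 200 changed peaks. The members and gene lists were chosen with earlier results of these data known. Peaks named in full were those within 1 kb of the Jag1 start, the 6 with the largest spleen genotype change and the 3 with the smallest p between control tissues. For the Notch list, the named peaks were those behind the 10 smallest p between genotypes (1 peak, at Maml2, counts in both tissues) and the 6 with the smallest p between tissues. The 10 peaks most like the +108 kb peak were named by nearest gene. Sums were tested by exact permutation, with TMM-scaled CPM and the mean of log2 CPM as alternatives. The alternatives were other scaling, DESeq2 1.42.0, no filter, halved counts, a replicate block, subsets of libraries, each library left out, and for the list a 2 kb reach. Genes are from GENCODE.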

Additional observations from a re-analysis of the deposited data

How the results depend on the processing

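Of 837 alternative values for the 10 peaks, 775 kept their direction and side of the threshold, 41 lost the call, 4 gained one and 17 changed sign. All sign changes came from leaving out a library, at values that passed no test. With each library left out in turn, called peaks numbered 3 to 4 for genotype in spleen, 3 to 6 in lung (3 without lung control replicate 2 or lung Vps34-deficient replicate 1), 1 to 6 between control tissues (1 without spleen control replicate 1, 3 without spleen control replicate 2, and 2 without either lung control) and 1 to 3 between Vps34-deficient tissues (1 without lung Vps34-deficient replicate 1). The interaction gave 0 called among the 10 under every alternative run. The cause was not tested.

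Values that changed sign ranged as follows over the libraries left out. The lung against spleen log2 fold change in Vps34-deficient Tregs ran from -0.47 to 0.26 at the 2.29 kb intronic peak, from -0.0785 to 0.34 at the 1.66 kb peak and from -0.80 to 0.14 at the exonic peak, where in controls it ran from -0.37 to 0.0015. The genotype value in lung ran from -0.0242 to 0.52 at +138 kb and from -0.22 to 1.03 at +295 kb. Interaction values ran from -0.57 to 0.17 at the 2.29 kb peak, from -0.63 to 0.31 at the exonic peak, from -0.0213 to 0.72 at +108 kb, from -0.59 to 0.071 at +109 kb and from -0.75 to 0.50 at +295 kb.

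Replicate numbers did not mark pairs, since deviations of same-numbered libraries correlated at -0.098 to 0.064. With the replicate block, 1 peak was called between Vps34-deficient tissues in place of 3, and the Notch list calls over the 4 comparisons fell from 107 to 57, of which 1 was for genotype in spleen, 11 in lung, 31 between control tissues and 14 between Vps34-deficient tissues. Over all tested peaks the block gave 25 higher and 252 lower for genotype in spleen, against 428 and 994 without it. Depth limits the +109, +120, +138 and +374 kb peaks, which held under 20 counts in many libraries.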
